A study of Mus musculus with 4 samples.

Results

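The vascular endothelial growth factor (VEGF) genes described here are 9 of the 21884 genes counted in single nuclei of mouse hearts, chosen by their gene symbols. They are the ligand genes Vegfa, Vegfb, Vegfc and Pgf, the receptor genes Flt1, Kdr and Flt4, and the neuropilin genes Nrp1 and Nrp2. Each library held nuclei of 1 whole heart from a male C57BL/6J mouse of wild-type genotype. All of these mice were themselves injured at day 1 post partum, and hearts were collected 21 days post injury. In 2 libraries the mouse came from an injured father (injured-father libraries 1 and 2), and in the other 2 from a father without injury (uninjured-father libraries 1 and 2). No uninjured heart is among the samples, so the levels below are those of a growing heart after injury. The sources used here do not give the kind of injury, the litters or the identity of the fathers.

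VEGF ligands are secreted proteins that bind receptor tyrosine kinases on endothelial cells, the cells that line vessels. VEGF-A, the product of Vegfa, drives vessel growth and permeability mainly through VEGFR2, the product of Kdr. VEGFR1, the product of Flt1, binds VEGF-A tightly, signals weakly, and also exists as a soluble form that holds the ligand back. The counts used here are given by gene, so they do not separate that form from the whole receptor. VEGF-B and placental growth factor, from Vegfb and Pgf, bind VEGFR1, whereas VEGF-C is the main ligand of VEGFR3, the product of Flt4, which is known for lymphatic growth. Neuropilins are coreceptors for VEGF ligands and for class 3 semaphorins. In the heart, Vegfa is known as a gene induced by low oxygen, and cardiomyocytes are a known source of it.

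The upstream windows of 4 of these genes are shown because they set a pair of ligand genes against a pair of receptor genes. Among the 9 classes compared below, Vegfa and Vegfb were highest in cardiomyocyte-like nuclei and Flt1 and Kdr in vascular endothelial-like nuclei. Each window is the RefSeq sequence of the GRCm38.p6 build, 250 bases before to 50 after the transcription start nearest to the annotated gene start, given 5′ to 3′ on the gene's strand, which is the minus strand for all 4. The coordinates are chr17:46032328-46032627 for Vegfa, chr19:6987602-6987901 for Vegfb, chr5:147725962-147726261 for Flt1 and chr5:75978406-75978705 for Kdr. Capitals mark the core letters of a hypoxia response element (ACGTG or GCGTG, on either strand).
Vegfa: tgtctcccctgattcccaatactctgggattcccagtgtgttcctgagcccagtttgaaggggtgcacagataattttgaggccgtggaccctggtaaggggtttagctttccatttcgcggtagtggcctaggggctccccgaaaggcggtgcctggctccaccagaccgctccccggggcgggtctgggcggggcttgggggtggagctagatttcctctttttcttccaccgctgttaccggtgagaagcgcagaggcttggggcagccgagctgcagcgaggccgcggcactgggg
Vegfb: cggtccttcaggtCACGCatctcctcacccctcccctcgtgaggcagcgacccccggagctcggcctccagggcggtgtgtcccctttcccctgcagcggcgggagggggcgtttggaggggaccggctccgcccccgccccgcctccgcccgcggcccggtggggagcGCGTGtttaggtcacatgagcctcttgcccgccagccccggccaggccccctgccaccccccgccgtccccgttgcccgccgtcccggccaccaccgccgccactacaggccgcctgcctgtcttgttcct
Flt1: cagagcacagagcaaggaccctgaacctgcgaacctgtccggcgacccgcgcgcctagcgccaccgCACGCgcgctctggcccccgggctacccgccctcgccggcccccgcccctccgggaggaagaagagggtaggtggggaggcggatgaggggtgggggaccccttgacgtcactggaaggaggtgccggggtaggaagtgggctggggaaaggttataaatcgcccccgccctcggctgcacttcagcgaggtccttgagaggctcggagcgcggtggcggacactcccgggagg
Kdr: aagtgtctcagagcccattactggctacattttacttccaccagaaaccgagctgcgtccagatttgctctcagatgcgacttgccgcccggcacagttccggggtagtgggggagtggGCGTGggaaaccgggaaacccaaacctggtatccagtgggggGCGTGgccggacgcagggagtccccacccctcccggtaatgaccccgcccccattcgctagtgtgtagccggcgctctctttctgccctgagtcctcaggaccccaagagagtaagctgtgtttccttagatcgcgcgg
The core letters matched 0 times in the Vegfa window, 2 times in the Vegfb window, 1 time in the Flt1 window and 2 times in the Kdr window, and no matches overlapped. At least 1 match was found in 43.8% of 32851 RefSeq windows of the same length. An ETS core (CCGGAA or CAGGAA, on either strand) matched 1 time in each of the Vegfa and Kdr windows and not in the other 2, against 41.4% of all windows with a match, and a GATA core (AGATAA) matched 1 time in the Vegfa window alone, against 11.2%. A match is only a run of letters, and its absence says nothing of sites outside the window.

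After filtering, 34002 nuclei remained, 8246 and 9545 in the injured-father libraries and 9416 and 6795 in the uninjured-father libraries, with between 15682280 and 32963609 UMIs (unique molecular identifiers, each marking 1 captured RNA molecule) per library. Median UMIs per nucleus were 2127 and 2671 in the injured-father libraries and 2532 and 1864 in the uninjured-father libraries, so uninjured-father library 2 was the shallowest, and it also had the highest share of nuclei marked as doublets (14.8%, against 9.62% to 9.90% in the other 3). Pairs of libraries shared between 22 and 31 barcodes. Nuclei formed 24 clusters, which were given names such as "cardiomyocyte-like" from lists of marker genes, and 3 clusters with 926 nuclei were left unnamed. The 9 VEGF genes were left out of the clustering and of the marker lists. Cardiomyocyte-like nuclei were 27.7% of nuclei, fibroblast-like 24.6%, vascular endothelial-like 20.5%, and pericyte-like, from cells that wrap small vessels, 9.15%. Endocardial-like nuclei, from cells that line the chambers, were 3.29%, and lymphatic endothelial-like nuclei 1.13%. Levels are given as CPM, the UMIs of a gene per 1000000 UMIs of the same class in the same library. They compare classes within a gene, and not 1 gene with another, since nuclear reads also depend on gene length and introns. Means over classes and clusters are over all 4 libraries, and the order of classes is a description with no test.

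Vegfa (chromosome 17, 46016993 to 46032369 on GRCm38, minus strand) came mostly from cardiomyocyte-like nuclei. They held on average 82.1% of its 31246 UMIs (77.2% to 86.0% over the libraries), while they held 46.7% of all UMIs. Its level in them was 589 and 476 CPM in the injured-father libraries and 497 and 626 CPM in the uninjured-father libraries, a mean of 547 ± 71.7 CPM (SD, n = 4). No library of another class with at least 50 nuclei in every library reached these values, and the next class in order, B lymphocyte-like, averaged 157 ± 79.1 CPM. Adipocyte-like nuclei had still more, 1090.0 and 637 CPM with injured fathers and 774 and 1148 CPM with uninjured fathers, but the uninjured-father libraries held only 18 and 7 such nuclei. Within cardiomyocyte-like nuclei, Vegfa averaged 568 ± 75.4 CPM in the cluster led by Fhl2, Slc4a3 and Lgals4. In the cluster led by Fgf12, Tmem163 and Kcnh7 it averaged 343 ± 83.9 CPM, and the highest of its 4 libraries (456 CPM) lay below the lowest of the Fhl2 cluster (490.2 CPM).

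In the other compared classes Vegfa ran from 55.0 CPM in macrophage- or monocyte-like nuclei to the B lymphocyte value above, with 112 CPM in fibroblast-like nuclei. RNA set free from broken cells enters every droplet, so these levels were set beside markers of the cardiomyocyte class. Some markers may also be expressed in other classes, so they are not a pure measure of free RNA. In smooth muscle-like nuclei, Myom1 stood at 77.8% of its cardiomyocyte level, where the markers had a median of 22.9%. The same limit applies to the vascular and lymphatic endothelial markers used below. As a share of its cardiomyocyte level, Vegfa stood at 28.7% in B lymphocyte-like nuclei, where 12 cardiomyocyte markers stood at a median of 30.1%, and at 14.8% in vascular endothelial-like nuclei, where they stood at 16.8%. Both values are below the median of the markers, and above 4 and 6 of the 12. Whether they come from free RNA was not tested. In fibroblast-like nuclei Vegfa stood at 20.5% against a median of 10.4%, above 10 of the 12 markers.

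Vegfb (chromosome 19, 6982473 to 6987651, minus strand) showed the same leading class at a low count. Its level in cardiomyocyte-like nuclei was 39.6 and 39.8 CPM with injured fathers and 35.6 and 49.5 CPM with uninjured fathers, a mean of 41.1 ± 5.89 CPM (SD, n = 4). These nuclei held 71.4% of its 2712 UMIs. The other 8 compared classes lay between 10.6 CPM in vascular endothelial-like and 19.9 CPM in lymphatic endothelial-like nuclei, and each neighbour in that order overlapped the next. Relative to the cardiomyocyte level, Vegfb in fibroblast-, pericyte-, endocardial- and lymphatic endothelial-like nuclei (36.6%, 35.8%, 27.2% and 48.3%) lay above all 12 cardiomyocyte markers.

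**Figure D1:**
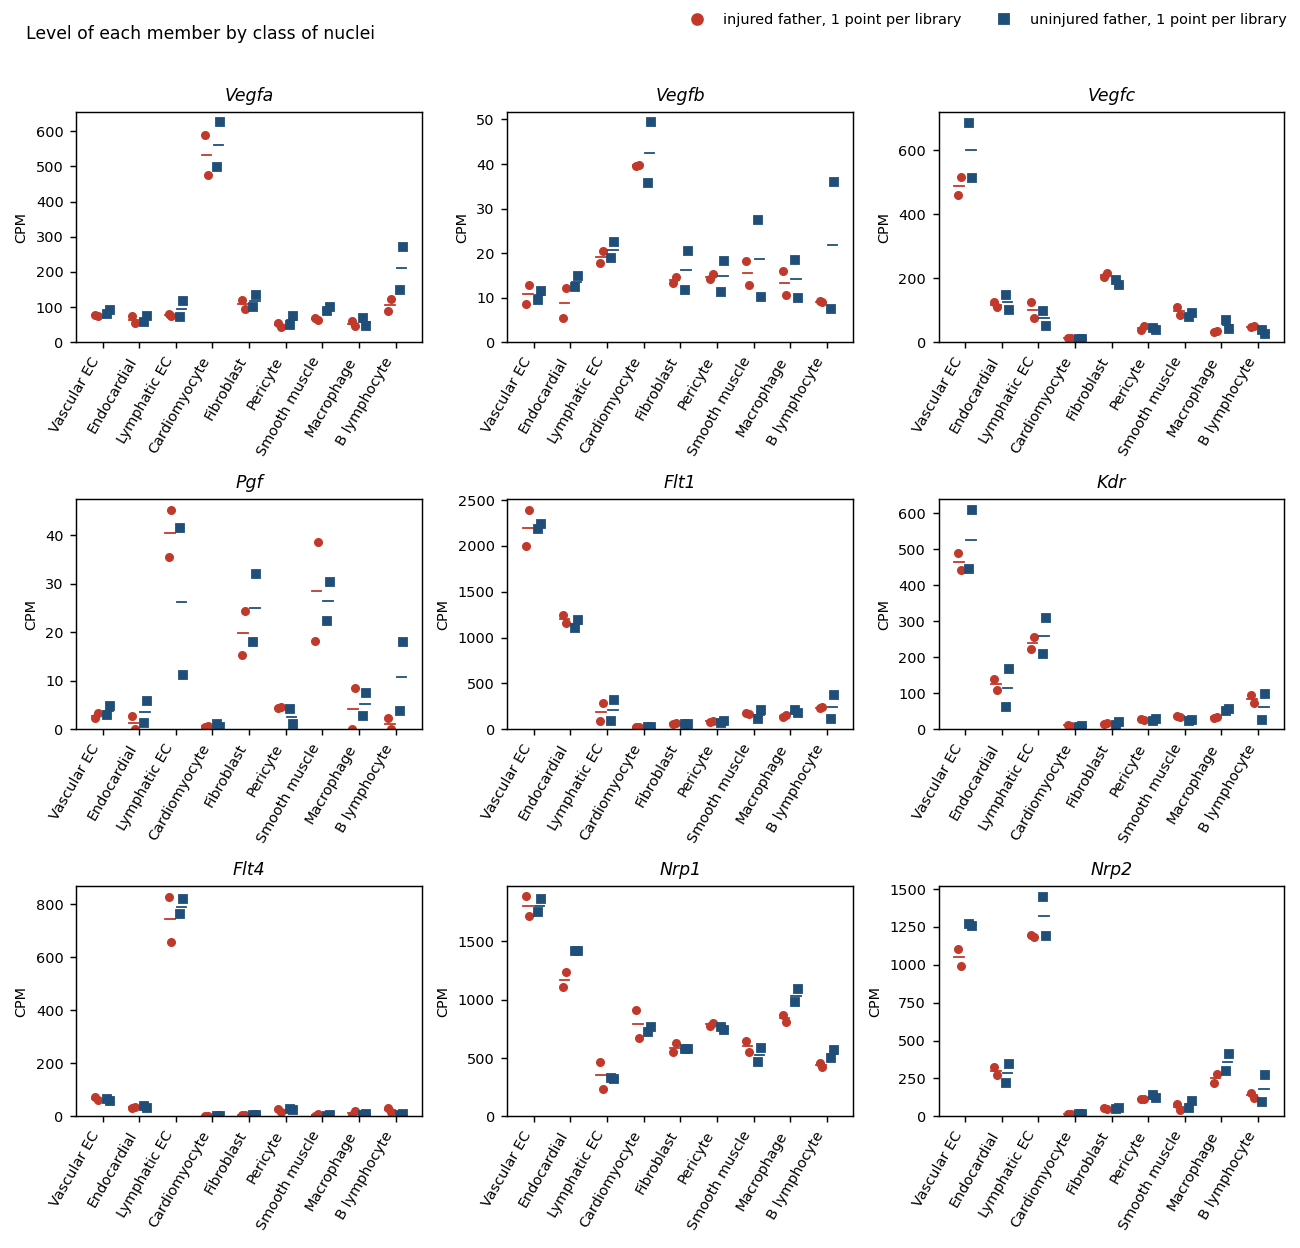
Level of each gene (CPM, linear axes starting at 0) in 9 classes of nuclei, with 1 point per library, injured fathers left of uninjured fathers, and a line at the mean of each pair; EC stands for endothelial cell. Vegfa and Vegfb stand highest in cardiomyocyte-like, Flt1 and Kdr in vascular endothelial-like and Flt4 in lymphatic endothelial-like nuclei, while Nrp1 is above 200 CPM in every class shown.

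Vegfc (chromosome 8, 54077606 to 54187096, plus strand) came mostly from vascular endothelial- and fibroblast-like nuclei. Its level in vascular endothelial-like nuclei was 459.8 and 516 CPM with injured fathers and 685 and 512 CPM with uninjured fathers, a mean of 543.4 ± 98.01 CPM (SD, n = 4). Fibroblast-like nuclei followed with 205 and 216 CPM against 195 and 178 CPM, and the ranges of the 2 classes did not overlap. Vascular endothelial-like nuclei held on average 50.5% and fibroblast-like nuclei 32.8% of its 13207 UMIs. Relative to the vascular endothelial level, Vegfc in fibroblast-like nuclei stood at 36.5%, where the 12 vascular endothelial markers stood at a median of 2.97%, while in macrophage- or monocyte-like nuclei it stood at 7.98%, below their median of 9.84%. Cardiomyocyte-like nuclei were lowest at 11.8 ± 1.52 CPM. Smooth muscle-like nuclei, at 91.6 CPM, lay above 10 of the 12 markers on the same scale (16.9% against a median of 6.69%).

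Pgf (chromosome 12, 85166635 to 85177790, minus strand) was the scarcest of the 9, with 712 UMIs in all libraries together. Fibroblast-like nuclei held 65.9% of these, at 15.4 and 24.5 CPM with injured fathers and 18.0 and 32.0 CPM with uninjured fathers. The mean level was higher in lymphatic endothelial-like nuclei (35.6 and 45.2 CPM against 41.4 and 11.2 CPM, from 60 UMIs) and in smooth muscle-like nuclei (18.3 and 38.6 CPM against 22.4 and 30.4 CPM, from 29 UMIs), and these 3 classes overlapped. Within fibroblast-like nuclei Pgf averaged 44.4 ± 16.4 CPM in the cluster led by Gfpt2, Adgrd1 and Pi16, and 19.4 ± 7.15 and 11.7 ± 3.21 CPM in the 2 largest clusters, led by Gfra1 and by Sntg1. The lowest library of the Pi16 cluster (31.2 CPM) lay above the highest of both (27.8 CPM). Cardiomyocyte-like nuclei had 0.633 ± 0.288 CPM, the lowest of the 9 compared classes.

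**Figure D2:**
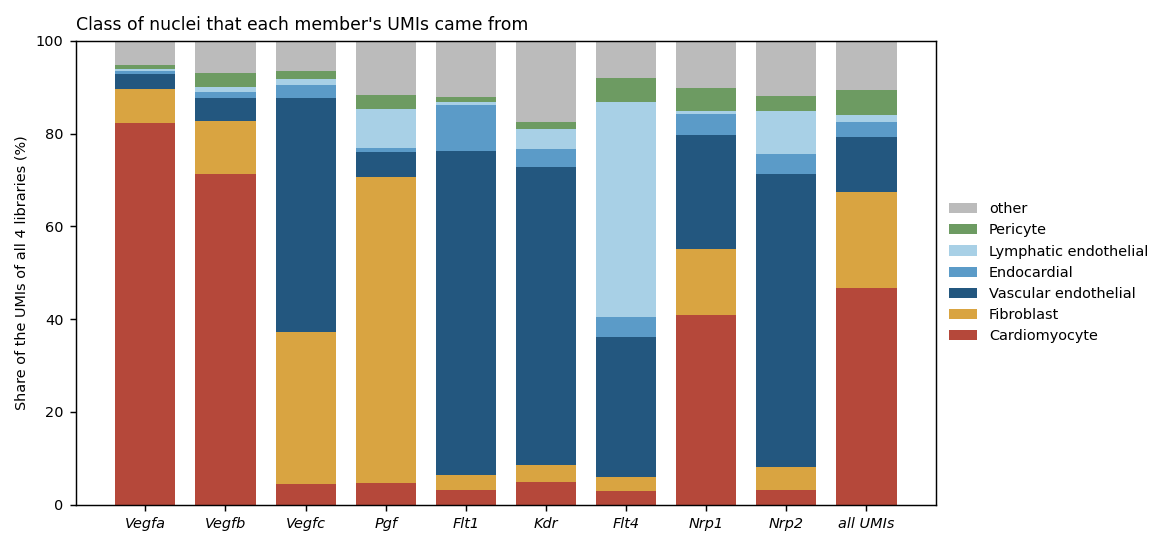
Share (%) of each gene's UMIs, pooled over the 4 libraries, by the class of nuclei they were counted in, beside the same split of all UMIs. Cardiomyocyte-like nuclei gave 46.7% of all UMIs, 82.2% of those of Vegfa and 3.11% of those of Flt1.

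The receptor genes Flt1 and Kdr were highest in vascular endothelial-like nuclei, and below that they differed from each other. Flt1 (chromosome 5, 147561604 to 147726011, minus strand) had 1998 and 2393 CPM there with injured fathers and 2183 and 2238 CPM with uninjured fathers. Endocardial-like nuclei held the next level, 1243 and 1160 CPM against 1109 and 1196 CPM, with no overlap between the classes. Lymphatic endothelial-like nuclei had 89.0 and 285 CPM with injured fathers and 94.2 and 320 CPM with uninjured fathers. Their mean of 197 ± 123 CPM overlapped B lymphocyte- and macrophage- or monocyte-like nuclei. Relative to the vascular level, the mean of Flt1 in lymphatic endothelial-like nuclei stood at 8.94%. The means of the 12 vascular endothelial markers all lay above this (11.2% to 62.9%). Since its libraries split so widely, the mean of Flt1 stands for no single library. Vascular endothelial-like nuclei held 70.1% of 38937 UMIs of Flt1.

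Kdr (chromosome 5, 75932827 to 75978458, minus strand) had 491 and 441.2 CPM in vascular endothelial-like nuclei with injured fathers and 445 and 609.5 CPM with uninjured fathers. Here the lymphatic endothelial-like nuclei came second, with 222 and 256 CPM against 209 and 309 CPM, and endocardial-like nuclei after them, with 141 and 110.2 CPM against 60.4 and 168 CPM. The lowest lymphatic library lay above the highest endocardial one. The small mesothelial-like class, from the outer lining of the heart, had 209 and 217 CPM of Kdr in the injured-father libraries, from 29 and 58 nuclei, where Flt1 stood at 52.1 and 103 CPM. The uninjured-father libraries held 4 and 2 such nuclei, too few to compare.

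In the 6 other compared classes, both receptors lay within the range of 12 markers of vascular endothelium. In some classes a high marker made that range wide, so that lying within it says little. Mecom stood at 91.5% in fibroblast-like and 51.8% in smooth muscle-like nuclei, and Pecam1 at 92.1% in B lymphocyte-like nuclei. In cardiomyocyte-like nuclei Flt1 was at 1.13% and Kdr at 1.92% of the vascular endothelial level, where the 12 markers were at a median of 1.37% (1.08% to 3.24%). In fibroblast-like nuclei they were at 2.73% and 3.22% against a median of 2.97%, and in macrophage- or monocyte-like nuclei at 7.67% and 8.62% against 9.84%. In B lymphocyte-like nuclei they were at 10.8% and 14.7% against 11.6%. Kdr lay above 9 of the 12 markers in cardiomyocyte-like and above 10 of the 12 in B lymphocyte-like nuclei, and Flt1 above 1 and 4 of them.

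Flt4 (chromosome 11, 49609263 to 49652739, plus strand) stood out in the lymphatic class. Lymphatic endothelial-like nuclei had 827 and 658 CPM with injured fathers and 763 and 819.6 CPM with uninjured fathers, a mean of 767 ± 78.0 CPM (SD, n = 4), which was 11.9 times the mean of the next class. They held 45.8% of its 2619 UMIs in 1.13% of the nuclei. Vascular endothelial-like nuclei followed at 64.3 ± 5.96 CPM, endocardial-like at 34.7 ± 3.36 CPM and pericyte-like at 24.3 ± 4.83 CPM. Neighbours among these 4 levels did not overlap. Relative to the lymphatic level, Flt4 in vascular endothelial-like nuclei (8.38%) and in pericyte-like nuclei (3.16%) lay above all 8 lymphatic markers, whose medians were 1.33% and 1.28% in these classes, while in cardiomyocyte-like nuclei (0.212%) it lay below their median of 0.520%.

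Nrp1 (chromosome 8, 128358604 to 128503363, plus strand) was found in all 9 compared classes, at between 338 and 1807 CPM. Vascular endothelial-like nuclei were highest, at 1893 and 1720.5 CPM with injured fathers and 1755 and 1861 CPM with uninjured fathers. Endocardial-like nuclei followed at 1297 ± 153 CPM, macrophage- or monocyte-like at 938 ± 124 CPM, pericyte-like at 769.9 ± 24.7 CPM and cardiomyocyte-like at 768 ± 105 CPM, and the last 2 overlapped. Lymphatic endothelial-like nuclei were lowest at 338 ± 95.9 CPM. Cardiomyocyte-like nuclei held 41.1% of its 89320 UMIs. Relative to the vascular level, Nrp1 was at 42.5% in cardiomyocyte-, 42.6% in pericyte- and 51.9% in macrophage- or monocyte-like nuclei, above all 12 vascular endothelial markers in each of them, and at 32.3% in fibroblast-like nuclei, above 10 of the 12.

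Nrp2 (chromosome 1, 62703285 to 62818695, plus strand) was highest in lymphatic endothelial-like nuclei, at 1197 and 1181 CPM with injured fathers and 1448 and 1190.1 CPM with uninjured fathers. Vascular endothelial-like nuclei had 1103 and 994.9 CPM against 1268 and 1257 CPM, and the ranges of these 2 classes overlapped. Next came macrophage- or monocyte-like nuclei, which averaged 303 ± 80.6 CPM, and cardiomyocyte-like nuclei were lowest at 14.8 ± 1.94 CPM. The ratio of Nrp1 to Nrp2 UMIs ran from 0.272 ± 0.0842 in lymphatic endothelial-like nuclei over 1.58 ± 0.172 in vascular endothelial-like nuclei to 52.4 ± 9.40 in cardiomyocyte-like nuclei (SD, n = 4 libraries each). The Flt4 to Kdr ratio separated the same 2 endothelial classes, at 3.15 ± 0.619 in lymphatic and 0.132 ± 0.0239 in vascular endothelial-like nuclei.

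Vessel-lining nuclei were not uniform for these genes. Vascular endothelial-like nuclei formed 3 clusters, called here by their leading genes, the Ablim3 cluster (4333 nuclei), the Kirrel3 cluster (2370 nuclei) and the Sema3g cluster (271 nuclei). The Sema3g cluster had the highest sum of 10 arterial markers (3075 CPM, against 683 in the Ablim3 and 407 in the Kirrel3 cluster), with Gja5, a gap junction protein of arteries, at 295 CPM. The Kirrel3 cluster had more of the 7 venous markers (990.0 CPM) than the Ablim3 cluster (261 CPM). Most of that sum came from Vwf, Ephb4 and Nr2f2 (363, 317 and 235 CPM), while Selp and Ackr1 had 10.5 and 1.30 CPM. Another cluster, led by Fabp4, Tmsb4x and Gpihbp1 (335 nuclei), was left unnamed. Markers of erythroid cells scored highest in it, but those of vascular endothelium also scored high. In addition, its leading genes held an adipocyte marker (Fabp4) and no erythroid marker. This unnamed cluster had the highest sum of 9 capillary markers (13890 CPM). The Ablim3 and Kirrel3 clusters were close to each other in that sum (5156 and 4731 CPM), and the Sema3g cluster had 2032 CPM.

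Vegfc was high in 2 of these clusters. It stood at 1879 and 1406 CPM in the Sema3g cluster with injured fathers and 2069.9 and 1566 CPM with uninjured fathers. In the Kirrel3 cluster it stood at 886 and 882 CPM against 1219 and 1115 CPM. The much larger Ablim3 cluster had 118 and 97.6 CPM against 145 and 139.9 CPM, below every library of the cluster led by Gfra1 of fibroblast-like nuclei (192 to 232 CPM).

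Among these 4 clusters Kdr was lowest in the Sema3g cluster, where Vegfc was highest. It averaged 1128 ± 81.1 CPM in the Fabp4 cluster, 638 ± 85.4 CPM in the Ablim3 cluster, 321 ± 29.97 CPM in the Kirrel3 cluster and 145 ± 27.6 CPM in the Sema3g cluster (SD, n = 4 libraries each), with no overlap between neighbours. Flt1 varied less, from 1623 ± 264 CPM in the Sema3g cluster to 2575 ± 157 CPM in the Kirrel3 cluster. The ratio of Flt1 to Kdr UMIs was 2.08 ± 0.247 in the Fabp4 cluster, 3.17 ± 0.494 in the Ablim3 cluster and 8.05 ± 0.706 in the Kirrel3 cluster. It was not taken in the Sema3g cluster, where a library held too few Kdr UMIs. Endocardial-like nuclei had a ratio of 11.2 ± 4.97 and lymphatic endothelial-like nuclei 0.750 ± 0.377. The ratio is one of UMIs, and only its differences between clusters can be read, not its absolute size.

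The neuropilins also differed between these clusters. Nrp1 was highest in the Ablim3 cluster at 2061 ± 58.3 CPM, 1529 ± 78.5 CPM in the Kirrel3 cluster and 913 ± 175 CPM in the Sema3g cluster. Nrp2 had 1319 ± 200.3 CPM in the Ablim3 cluster and 1017 ± 48.1 CPM in the Kirrel3 cluster, and the Sema3g cluster was lower at 169 ± 61.2 CPM. Flt4 was low in all of them, between 36.0 and 75.5 CPM, and 767 CPM in the lymphatic cluster led by Mmrn1, Reln and Ccl21a.

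**Figure D3:**
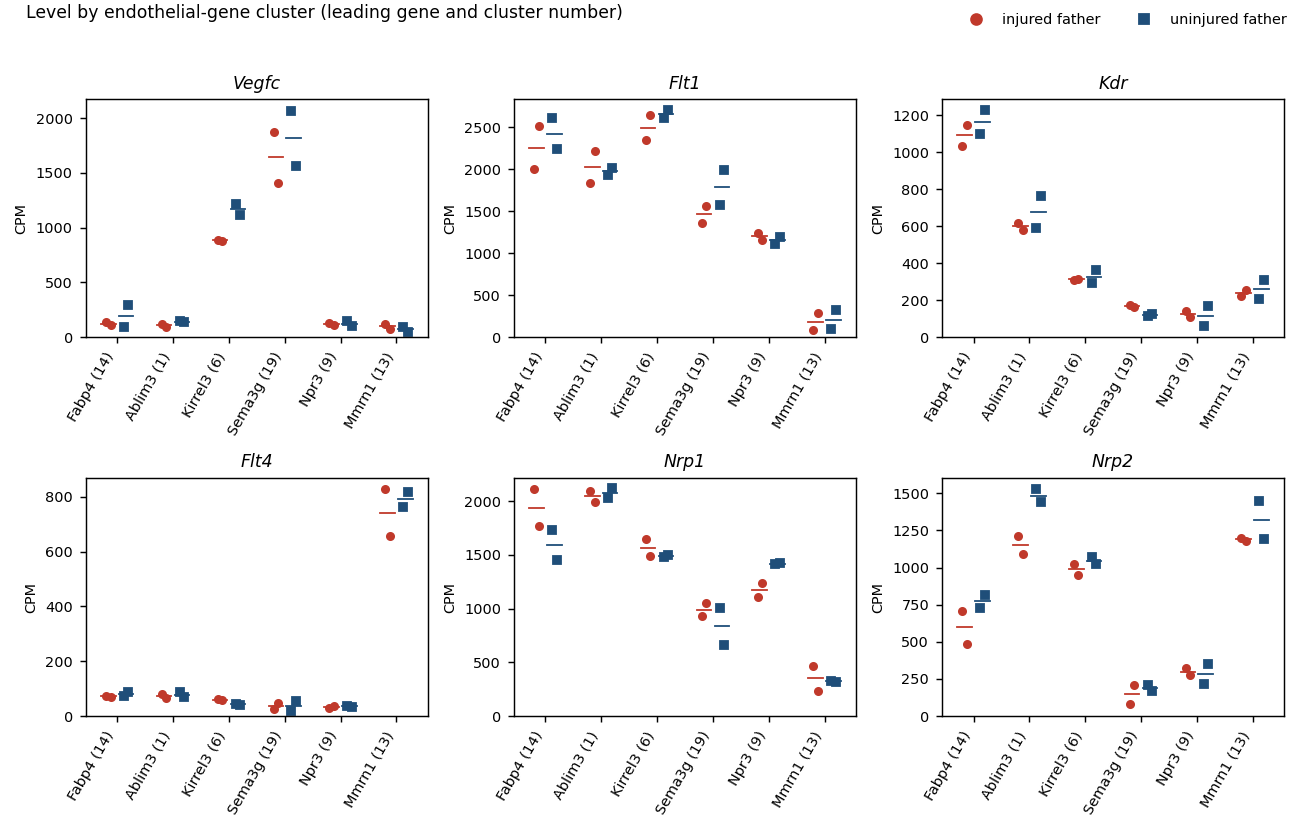
Level (CPM) of Vegfc, the 3 receptor genes and the 2 neuropilin genes in 6 clusters with endothelial genes, named by leading gene and cluster number, with 1 point per library, injured fathers left of uninjured fathers, and a line at the mean of each pair. Kdr steps down from the Fabp4 to the Sema3g cluster, Vegfc is high in the Kirrel3 and Sema3g clusters, and Flt4 stands out in the Mmrn1 cluster.

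The pattern of each gene over 9 classes in 4 libraries (36 points, Pearson's r of log2 of CPM + 5) was set beside that of 12240 genes. These points share library depth and free RNA, so r is a description. Flt1 was most like Samd12, Adgrl4 and Cyyr1 (r = 0.967, 0.964 and 0.956), and Kdr most like Nova2, Ushbp1 and Cdh5 (r = 0.976, 0.975 and 0.958), of which Cdh5 encodes the cadherin of endothelial junctions. Adgrl4, Cyyr1, Ushbp1 and Cdh5 are also among the markers that named the vascular class. Vegfa was most like Dok7, Esrrg and Ttn (r = 0.915, 0.912 and 0.895), where Ttn encodes the sarcomere protein titin and is a marker that named the cardiomyocyte class. Vegfb was most like Jph1, Irx4 and Phactr3 (r = 0.833, 0.791 and 0.788). Vegfc was most like Mcc, Fam171a1 and Ndel1 (r = 0.921, 0.916 and 0.900), and Pgf most like Pappa, Nox4 and Tnc (r = 0.864, 0.840 and 0.833). Flt4 was most like Adgrg3, Cldn5 and Nts (r = 0.925, 0.896 and 0.891), and Nrp2 most like Elk3, Arap3 and Nova2 (r = 0.966, 0.960 and 0.944). For Nrp1 the closest genes, Lhx6, Klk8 and Cx3cl1, reached r = 0.794, 0.792 and 0.785. Among the 9 genes themselves, Kdr and Nrp2 (r = 0.925), Flt1 and Kdr (r = 0.834) and Flt4 and Nrp2 (r = 0.821) were the most alike pairs.

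Other genes of the pathway were read from 5 lists, and their levels are again a description. Vegfd, the ligand gene outside the 9 that also serves VEGFR3, was highest in endocardial-like nuclei at 145 ± 14.5 CPM, with 46.5 CPM in fibroblast-like nuclei. Ccbe1, whose product helps the cleavage that activates VEGF-C, was highest in fibroblast-like nuclei at 838 ± 85.4 CPM, and Adamts3, the protease of that cleavage, in cardiomyocyte-like nuclei at 134 ± 6.76 CPM. Among neuropilin partners, Plxna4 was highest in endocardial-like nuclei (1571 ± 112 CPM), and Plxna2 and Plxnd1, whose products are semaphorin receptors, in vascular endothelial-like nuclei (641 ± 51.9 and 520.5 ± 84.7 CPM). Sema3a and Sema3d were highest in lymphatic endothelial-like nuclei (501 ± 118 and 822 ± 17.7 CPM). Epas1, which encodes HIF-2α, was highest in vascular endothelial-like nuclei at 752 ± 78.0 CPM, and Hif1a in cardiomyocyte-like nuclei at 136 ± 10.4 CPM.

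The comparison that the design sets up is between offspring of injured and of uninjured fathers. In the class where each of the 9 genes was highest, the libraries of the 2 groups overlapped, as the values above show. The log2 fold changes there (injured over uninjured fathers, SE in parentheses) were -0.05 (0.15) for Vegfa and -0.07 (0.17) for Vegfb in cardiomyocyte-like nuclei. In vascular endothelial-like nuclei they were -0.26 (0.16) for Vegfc, 0.03 (0.14) for Flt1, -0.13 (0.14) for Kdr and 0.04 (0.13) for Nrp1. In lymphatic endothelial-like nuclei they were 0.37 (0.50) for Pgf, -0.06 (0.19) for Flt4 and -0.13 (0.18) for Nrp2. None passed the test, and none exceeded 2 standard errors.

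Across all classes, 66 of the 81 pairs of gene and class passed the filter on low counts, and 0 of them were called (edgeR quasi-likelihood test, Benjamini-Hochberg adjusted p under 0.05 over all genes of the class). Of these, 5 had an unadjusted p under 0.05. They lay in macrophage- or monocyte-, cardiomyocyte- and B lymphocyte-like nuclei. Over all genes of these classes, edgeR gave such a p to 477 of 8365, 531 of 12518 and 274 of 5007. Pgf could be tested in 2 classes, Vegfb in 5, Flt4 in 6 and Kdr in 8, and the other 5 genes in all 9. DESeq2 called 0 of the 66, with 0 at an unadjusted p under 0.05. With uninjured-father library 2 left out, 1 pair was called, Kdr in endocardial-like nuclei.

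Few genes of any kind were called. The share called was 0.00799% of 12518 genes in cardiomyocyte-like, 0.246% of 8140 in endocardial-like, 0.0161% of 12450 in fibroblast-like, 0.0717% of 8365 in macrophage- or monocyte-like and 0.0299% of 10024 in pericyte-like nuclei. It was 0% in vascular endothelial-, lymphatic endothelial-, smooth muscle- and B lymphocyte-like nuclei, where edgeR gave 483, 303, 199 and 274 genes with an unadjusted p under 0.05 and DESeq2 called 2, 2, 1 and 0 genes. For 2 libraries against 2 the smallest p of an exact permutation test is 0.333, so the p-values rest on a spread shared across genes. They measure only the spread between these hearts, whose litters are not given.

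The 5 pairs with the smallest p are given as values. Of these, 3 were in macrophage- or monocyte-like nuclei. Nrp2 had 218 and 281 CPM there with injured fathers and 302 and 412 CPM with uninjured fathers, a log2 fold change of -0.47 (SE 0.19, edgeR adjusted p = 0.855). Flt1 had 137 and 151 CPM against 212 and 175 CPM, a log2 fold change of -0.42 (SE 0.20, edgeR adjusted p = 0.874). Vegfc had 30.4 and 33.9 CPM against 69.4 and 39.9 CPM, a log2 fold change of -0.80 (SE 0.35, edgeR adjusted p = 0.872). In all 3 the injured-father libraries lay below the uninjured-father ones. The sum of the 12 vascular endothelial markers in the same nuclei moved the same way, at 1074 and 1356 CPM with injured fathers and 1438 and 1610 CPM with uninjured fathers (12 of 12 detected), and its part in these differences was not tested.

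The other 2 pairs were Vegfa in B lymphocyte-like and Kdr in cardiomyocyte-like nuclei. In both classes the gene lay within the range of the 12 markers it was set beside above. Vegfa had 87.6 and 121 CPM in B lymphocyte-like nuclei with injured fathers and 149.7 and 269.5 CPM with uninjured fathers, a log2 fold change of -0.99 (SE 0.35, edgeR adjusted p = 0.721). The value was -0.10 with doublets kept. The 12 cardiomyocyte markers in these nuclei summed to 10196 and 16931 CPM with injured fathers and 21515 and 35487 CPM with uninjured fathers (12 of 12 detected), the same order as Vegfa, and their part was not tested. Kdr had 12.5 and 10.0 CPM in cardiomyocyte-like nuclei of injured-father libraries and 6.48 and 9.16 CPM in those of uninjured-father libraries, a log2 fold change of 0.57 (SE 0.23, edgeR adjusted p = 1.00) that was 0.24 with doublets kept. The vascular endothelial markers there summed to 239 and 247 CPM against 196 and 231 CPM (12 of 12 detected), and their part was not tested.

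In the endocardial class, Kdr had a log2 fold change of 0.31 (SE 0.27, edgeR adjusted p = 1.00), with the groups overlapping. It was 1.02 (edgeR adjusted p = 0.0424) without uninjured-father library 2 and -0.37 without uninjured-father library 1, so its direction rests on which of the 2 is kept.

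**Figure D4:**
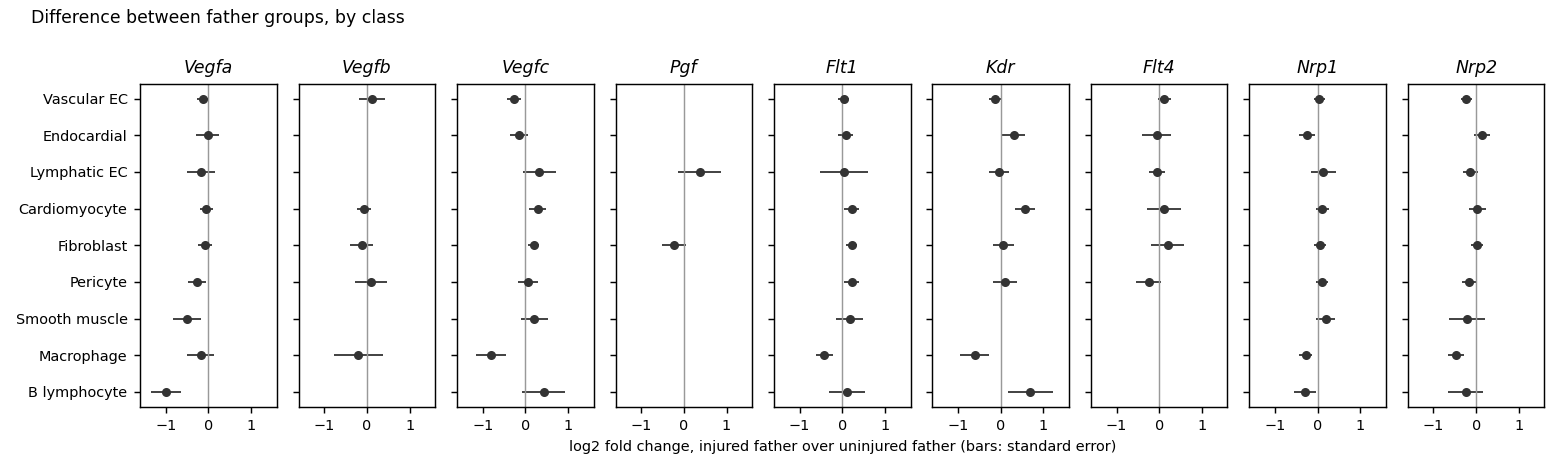
Log2 fold change (injured over uninjured fathers, edgeR) with its standard error for each gene in each class where it passed the filter on low counts. Points lie on both sides of 0, and none of the 66 was called.

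Within vessels, the share called was 0.0296% of genes in the Ablim3 cluster and 0.044% in the Kirrel3 cluster, and none of the 9 was called in either. The Sema3g cluster, with 46 nuclei in uninjured-father library 2, and the unnamed Fabp4 cluster were not tested. Vegfc in the Ablim3 cluster (values above) had a log2 fold change of -0.37 (SE 0.15, unadjusted p = 0.0265, edgeR adjusted p = 0.996), and in the Kirrel3 cluster -0.37 (SE 0.14, unadjusted p = 0.0133, edgeR adjusted p = 0.954). In both clusters the 2 injured-father libraries lay below the 2 uninjured-father libraries. Nrp2 in the Ablim3 cluster had 1215 and 1093 CPM with injured fathers and 1528 and 1441 CPM with uninjured fathers, a log2 fold change of -0.33 (SE 0.13, edgeR adjusted p = 0.996). Flt4 in the Kirrel3 cluster had 61.7 and 57.3 CPM against 43.2 and 41.5 CPM, a log2 fold change of 0.50 (SE 0.22, edgeR adjusted p = 0.954). In the Ablim3 cluster the 7 sprouting tip markers summed to 588 and 553 CPM with injured fathers against 609 and 718 CPM. The 10 arterial markers summed to 663 and 682 CPM against 691 and 695 CPM. Both sums were lower with injured fathers, as Vegfc and Nrp2 were. The venous markers there, at 264 and 253 CPM against 247 and 280 CPM, overlapped between the groups. So did the capillary markers, at 4243 and 6261 CPM against 4963 and 5159 CPM. The venous markers of the Kirrel3 cluster summed to 851 and 875 CPM with injured fathers against 1087 and 1147 CPM. Its arterial markers were also lower with injured fathers, at 403.2 and 383.6 CPM against 438.0 and 403.5 CPM. Its capillary and sprouting tip markers overlapped between the groups. The part of these marker sums in the differences was not tested.

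In all nuclei together, where 0.0873% of 14893 genes were called, none of the 9 was called. Flt1 had 370.3 and 440.0 CPM with injured fathers and 315 and 369 CPM with uninjured fathers, a log2 fold change of 0.23 (SE 0.13, edgeR adjusted p = 0.815). Vegfa had 321 and 263 CPM against 297 and 361 CPM, a log2 fold change of -0.19 (SE 0.13, edgeR adjusted p = 0.879). Vascular endothelial-like nuclei were 22.4% and 22.1% of nuclei in the injured-father libraries and 18.1% and 19.3% in the uninjured-father libraries, and cardiomyocyte-like nuclei 23.1% and 26.5% against 30.5% and 31.1%. Adipocyte-like nuclei were 2.09% and 1.13% of nuclei in the injured-father libraries and 0.191% and 0.103% in the uninjured-father libraries, and gave 7.33% and 3.22% of Vegfa UMIs against 0.395% and 0.300%. The part of these shares in the differences was not tested. In such sums, fewer cells of a type and less RNA per cell cannot be told apart.

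The 5 lists of other pathway genes gave 0 called genes in either direction in cardiomyocyte-, vascular endothelial-, fibroblast- and pericyte-like nuclei. In vascular endothelial-like nuclei, 13 of 14 target genes of VEGF signalling were tested, 3 had a positive and 10 a negative log2 fold change, and their median was -0.13, against -0.00 over all genes. There the neuropilin partners had 3 positive and 8 negative values (median -0.16), and the signalling genes below the receptors 22 positive and 10 negative (median 0.06). In cardiomyocyte-like nuclei the signalling genes had 27 positive and 5 negative values (median 0.10, against -0.00 over all genes). The oxygen-sensing genes had 4 and 5 there, and the ligand and processing genes 1 and 5. The signalling genes also had 24 positive and 8 negative values in fibroblast-like nuclei (median 0.06). In pericyte-like nuclei they had 22 and 9 (median 0.10). Their lean to positive values was thus not particular to 1 of these classes, and it was not tested.

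The genes given next had the smallest or next smallest p of their list in a class, and none was called. Plxna2 had 187 and 185 CPM in cardiomyocyte-like nuclei of injured-father libraries and 247 and 266 CPM in those of uninjured-father libraries, a log2 fold change of -0.44 (SE 0.12, edgeR adjusted p = 0.686). Ccbe1 had 30.3 and 29.9 CPM there against 44.0 and 42.4 CPM, a log2 fold change of -0.51 (SE 0.15, edgeR adjusted p = 0.842). These levels are far below the 838 CPM of Ccbe1 in fibroblast-like nuclei, and the part of free RNA in them was not tested. Egln3, whose product marks hypoxia-inducible factors for breakdown, had 122 and 59.7 CPM in cardiomyocyte-like nuclei of injured-father libraries and 57.0 and 43.1 CPM in those of uninjured-father libraries, a log2 fold change of 0.85 (SE 0.29, edgeR adjusted p = 0.991). The lower injured-father library was close to the higher uninjured-father library. The log2 fold change of Egln3 was also positive in vascular endothelial- (0.63), fibroblast- (0.56) and pericyte-like nuclei (0.41). The groups overlapped in vascular endothelial- and fibroblast-like nuclei, and injured-father library 1 was highest in each of these classes. Rcan1, an inhibitor of calcineurin that VEGF induces in endothelial cells, had 77.9 and 76.4 CPM in vascular endothelial-like nuclei against 62.3 and 57.5 CPM, a log2 fold change of 0.39 (SE 0.14, edgeR adjusted p = 0.991). In fibroblast-like nuclei, Adamts14 and Adamts3, both proteases that can cleave VEGF-C, had values on opposite sides, with log2 fold changes of -0.89 and 0.56 (edgeR adjusted p = 1.00 for both).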

How the data were processed

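Single-nucleus RNA of 4 mouse hearts was read with 10x 3' libraries. Each deposited matrix gives, by gene and barcode, whole-number UMI counts without normalization, and the file headers name Cell Ranger 6.0.1 as the tool the authors used. Seurat 4.0 is named in the submitters' processing notes, and the genome build behind the counts is not given in the sources used here. No other step is assumed. Of the 21884 gene IDs, 21779 are in GENCODE M21 (GRCm38), which gave positions, and promoter windows came from RefSeq (GRCm38.p6), which held all 9 genes.

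Nuclei with at least 500 UMIs, 300 genes and at most 5% mitochondrial UMIs were kept, doublets marked by Scrublet (in scanpy) were removed, and 3000 variable genes, 30 components, 20 neighbours and resolution 1.0 gave clusters (scanpy 1.11.5, leidenalg 0.10.2). Clusters were named from 17 marker lists, where at least 3 markers had to be detected. Classes with at least 50 nuclei in every library were summed per library and tested with edgeR 4.0.16 (TMM, filterByExpr with a minimum count of 10, quasi-likelihood, two-sided, R 4.3.3) between father groups, each fit over all genes of the class. Called means a Benjamini-Hochberg adjusted p under 0.05. DESeq2 1.42.0, other scaling, filters, clustering and left-out libraries were alternatives. The statistics were tested on simulated data.

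The 9 genes and all lists were chosen with earlier results of these data known. Named outside the 9 are the 3 genes most like each and, per list and class, the 2 with the smallest p where none was called. Where the text gives pathway levels, Kdr in mesothelial-like nuclei or marker sums, these were chosen after their values were seen. Both father groups carry library numbers 1 and 2, and the correlation of same-numbered deviations ran from -0.03 to 0.12 over the fits, so with 2 pairs the numbers were not taken to pair the hearts. Counts of UMIs give counting error only, and UMIs of free RNA are among them. The level in 1 cluster of cardiomyocyte-like nuclei is not reported here.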

Additional observations from a re-analysis of the deposited data

Results flagged for a closer look

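Among the pairs of gene and class that passed the filter on low counts, there were 8 cases in which every injured-father library lay above every uninjured-father library in 1 class and below in another for the same gene. In each of them the difference between the classes was not tested, and none of the single comparisons was called. The choice of classes follows their values. With 2 libraries against 2 and no difference between groups, full separation in either direction has a probability of 0.333. How often other genes give such opposite cases was not counted.

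For Vegfc, the log2 fold change (injured over uninjured fathers) was -0.80 in macrophage- or monocyte-like nuclei. It was 0.43 in B lymphocyte-like, 0.29 in cardiomyocyte-like and 0.20 in fibroblast-like nuclei, which lie 1.23, 1.09 and 1.00 above it. Flt1 had 0.22 in fibroblast-like and -0.42 in macrophage- or monocyte-like nuclei, 0.64 apart. Kdr had 0.57 in cardiomyocyte-like and -0.61 in macrophage- or monocyte-like nuclei, 1.18 apart. Nrp1 had 0.10 in pericyte-like nuclei, against -0.30 in B lymphocyte-like, -0.25 in endocardial-like and -0.28 in macrophage- or monocyte-like nuclei, which is 0.40, 0.35 and 0.38 apart. Macrophage- or monocyte-like nuclei entered 6 of the 8 cases, and the vascular endothelial markers in them were lower in the injured-father libraries, as given above.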

How the results depend on the processing

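The level of each gene in its highest class moved by less than its SD in 81 of 81 recomputed values. For the values with 1 library left out this was fixed in advance. Leaving out 1 of 4 libraries cannot move their mean by as much as their SD. Of 208 recomputed log2 fold changes over 19 comparisons, 194 kept their direction and their side of the threshold, 13 changed sign and 1 became called. The count of called pairs among the 9 genes was 0 to 1 when each library was left out in turn and 0 under all other alternatives, the replicate block included (4 pairs with an unadjusted p under 0.05). The cause was not tested for any of the changes below.

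Counts of genes called over the whole table moved widely, so they give only a rough background. With no filter on low counts, genes called numbered 23 in B lymphocyte-, 177 in cardiomyocyte-, 31 in endocardial-, 39 in fibroblast-, 35 in macrophage- or monocyte-, 17 in pericyte-, 8 in smooth muscle- and 35 in vascular endothelial-like nuclei, 183 in all nuclei, 19 in the Ablim3 and 16 in the Kirrel3 cluster. With DESeq2 they numbered 21 in cardiomyocyte-, 3 in endocardial-, 6 in fibroblast-, 2 in lymphatic-, 2 in macrophage- or monocyte-, 1 in smooth muscle- and 2 in vascular endothelial-like nuclei, 95 in all nuclei, 1 in the Ablim3 and 2 in the Kirrel3 cluster. With the replicate block they numbered 42 in cardiomyocyte-, 9 in fibroblast-, 4 in lymphatic-, 28 in macrophage- or monocyte-, 8 in smooth muscle- and 4 in vascular endothelial-like nuclei, 157 in all nuclei and 11 in the Kirrel3 cluster. With doublets kept they numbered 2 in cardiomyocyte-, 7 in endocardial-, 1 in lymphatic-, 0 in macrophage- or monocyte- and 2 in smooth muscle-like nuclei. At resolution 2.0 they numbered 10 in endocardial- and 11 in macrophage- or monocyte-like nuclei, with the 9 genes kept in the clustering 11 in macrophage- or monocyte- and 7 in pericyte-like nuclei, with RLE scaling 7 in pericyte-like nuclei, and with at least 1000 UMIs per nucleus 20 in all nuclei.

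With each library left out in turn, genes called ranged from 0 to 15 in B lymphocyte-, 0 to 137 in cardiomyocyte-, 23 to 53 in endocardial-, 0 to 138 in fibroblast-, 12 to 114 in lymphatic-, 21 to 44 in macrophage- or monocyte-, 8 to 24 in pericyte-, 2 to 28 in smooth muscle- and 24 to 92 in vascular endothelial-like nuclei, 0 to 507 in all nuclei, 1 to 31 in the Ablim3 and 5 to 41 in the Kirrel3 cluster. The lone library was then assumed to vary like the other group. Log2 fold changes that changed sign ranged from -0.21 to 0.080 for Vegfa and -0.27 to 0.13 for Vegfb in cardiomyocyte-like nuclei. In vascular endothelial-like nuclei they ranged from -0.48 to 0.0086 for Vegfc, -0.12 to 0.16 for Flt1, -0.31 to 0.071 for Kdr and -0.025 to 0.096 for Nrp1. In lymphatic endothelial-like nuclei they ranged from -0.026 to 1.85 for Pgf, -0.23 to 0.10 for Flt4 and -0.28 to 0.035 for Nrp2, and Kdr in endocardial-like nuclei ranged from -0.37 to 1.02. Flt4 in lymphatic endothelial-like nuclei was also 0.12 with doublets kept and 0.053 with at least 1000 UMIs per nucleus. Depth limits Pgf, Flt4 and Vegfb most, with 712, 2619 and 2712 UMIs in all, and the lymphatic class, with 53 nuclei in the smallest library.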
